A study of Homo sapiens with 7 samples.

Results

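The regions described here are DNA sites occupied by MYC that lie where 2 or more protein-coding genes come close together. They were chosen by position alone: peaks from both MYC libraries were joined where they shared 1 bp or more, regions with a peak in both libraries were kept, and a region was a member when its centre lay within 1000 bp of an end of the annotated spans of at least 2 protein-coding genes (GRCh38.p14). This gave 376 regions of the 6313 MYC regions with a peak in both libraries, or 5.96%. They touch 719 distinct genes. At 365 regions 2 genes meet and at 11 regions 3 genes meet.

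Peaks came from chromatin immunoprecipitation followed by sequencing (ChIP-seq), which sequences the DNA fragments that an antibody pulls down with a bound protein. All samples were DLD-1, an established human colon adenocarcinoma line, carrying a retrovirally introduced MycER, in which MYC is joined to part of the estrogen receptor and is switched on by 4-hydroxytamoxifen. MYC was profiled in 2 libraries of cells with MycER activated for 8 hr (4-hydroxytamoxifen, 500 nM). ATF4 was profiled in 2 libraries of activated cells and in 2 libraries of control cells, which the protocol describes as given vehicle and which carried MycER as well. A further sample is an IgG immunoprecipitation, which was not analysed here. Control cells have no MYC data here, so no value below is a change of MYC binding, the antibody's signal does not separate MycER from the cells' own MYC, and no group received the inducer without MycER. Separate cultures are not named for the replicates, and any p-value over libraries then reflects the spread of these samples alone, possibly a technical one.

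MYC is a transcription factor that, as a dimer with MAX, binds the E-box, whose canonical form reads CACGTG, and it is known for raising the expression of genes for ribosome production and growth. Many human genes start close to another gene that is transcribed in the opposite direction, so that a single stretch of open, CpG-rich DNA serves both. A peak there cannot be assigned to either gene by position. ATF4 is made when cells sense shortage of amino acids or misfolded proteins, as part of the integrated stress response. It binds, with partners of the C/EBP family, a composite element and turns on genes of amino acid supply and transfer RNA charging.

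The sequences that follow show what lies under some of these peaks. The first 5 are windows of 121 bases centred on a MYC region (base 61 is the centre), read 5′ to 3′ on the plus strand of GRCh38.p14 (RefSeq), with the canonical E-box or either of 2 variants, which differ from it in a single base (CACGCG; the other is CATGTG), in capitals. The region of GNL3, a nucleolar GTP-binding protein, and PBRM1, a chromatin remodelling subunit, is among the strongest and holds a canonical E-box 53 bp from its centre (chr3:52686034-52686154). The region of ALG3, a mannosyltransferase of the endoplasmic reticulum, and EEF1AKMT4 holds one 16 bp from its centre (chr3:184249502-184249622). The region of AIMP2, a scaffold of the multi-tRNA synthetase complex, and PMS2, a mismatch repair protein, has the variant CACGCG 18 bp from its centre (chr7:6009293-6009413). The region of NOP16, a nucleolar protein of ribosome assembly, and HIGD2A is the 4th strongest and has none of the 3 forms in this window (chr5:176388506-176388626). The region of SLC11A1, a metal ion transporter, and CTDSP1, a phosphatase, whose spans overlap, is among the weaker ones and holds a canonical E-box 8 bp from its centre (chr2:218397029-218397149).
GNL3 / PBRM1: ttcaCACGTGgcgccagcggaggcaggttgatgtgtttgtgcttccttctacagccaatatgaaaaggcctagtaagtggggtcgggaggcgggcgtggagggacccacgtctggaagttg
ALG3 / EEF1AKMT4: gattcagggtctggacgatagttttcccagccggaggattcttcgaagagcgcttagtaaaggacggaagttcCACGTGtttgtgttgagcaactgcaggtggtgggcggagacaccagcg
AIMP2 / PMS2: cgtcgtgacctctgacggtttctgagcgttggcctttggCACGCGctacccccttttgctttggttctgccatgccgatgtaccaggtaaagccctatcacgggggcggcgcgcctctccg
NOP16 / HIGD2A: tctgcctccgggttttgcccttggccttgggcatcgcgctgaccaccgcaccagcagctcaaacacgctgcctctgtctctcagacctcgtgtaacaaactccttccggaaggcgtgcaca
SLC11A1 / CTDSP1: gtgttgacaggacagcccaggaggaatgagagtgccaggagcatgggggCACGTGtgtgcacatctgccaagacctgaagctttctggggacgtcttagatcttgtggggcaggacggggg

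The strongest member covers the start of NME1, a nucleoside diphosphate kinase, which NME1-NME2, the annotated readthrough of NME1 into NME2, shares. Its promoter is shown because the canonical E-box in it lies past the start: the motif begins 34 bases after the annotated first base, in a window of 250 bases before the start to 50 after it (chr17:51153309-51153608, plus strand). The MYC region itself spans chr17:51153419-51153650 and so includes this motif.
NME1 promoter: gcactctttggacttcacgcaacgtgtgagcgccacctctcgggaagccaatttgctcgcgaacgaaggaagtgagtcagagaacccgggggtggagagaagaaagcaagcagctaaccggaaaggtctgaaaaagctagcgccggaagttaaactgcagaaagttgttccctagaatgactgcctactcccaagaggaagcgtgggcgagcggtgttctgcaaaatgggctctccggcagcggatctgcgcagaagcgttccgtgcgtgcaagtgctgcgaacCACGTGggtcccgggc

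Signal is given as the normalized tag count, the number of sequenced fragments at a peak per 10 M tags of the library, with replicate 1 before replicate 2. The replicate 1 libraries held 21.1 to 25 M tags and the replicate 2 libraries 49.8 to 50.3 M, so the same normalized value rests on more fragments in replicate 2. The MYC lists held 8636 peaks in replicate 1 and 22532 in replicate 2. The main shares below are therefore given for each MYC library as well as for both, and other shares are for regions with a peak in both libraries.

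The strongest member lay at the start of NME1. NME1 / NME1-NME2 had 27.1 and 43.3 normalized tags. The region of PDCD11, a nucleolar factor needed to process ribosomal RNA, and ATP5MK, a small subunit of ATP synthase, had 26.6 and 31.5. RPL5, a protein of the large ribosomal subunit, and DIPK1A shared a region with 22.8 and 35.9. These 3 stood in the top percent of the peaks of both deposited lists by rank, and the whole set of members ranged from 4.28 to 27.1 in replicate 1 and from 2.99 to 43.3 in replicate 2. NOP16 / HIGD2A had 22.8 and 33.7. METTL1, which methylates transfer RNA, and EEF1AKMT3, which methylates a translation elongation factor, shared a region with 20 and 39.7. Next in order came CDC123 / NUDT5 with 20.4 and 31.3, where CDC123 helps to assemble the translation initiation factor eIF2. DDX42, an RNA helicase linked to splicing, and CCDC47 followed with 19.5 and 27.7. GNL3 / PBRM1 had 18.1 and 25.3, and RPS18, a protein of the small ribosomal subunit, shared 17.6 and 24.9 with VPS52. The remaining 6 of the 15 highest by mean rank were LOC124902474 / ADIRF, YBX1 / PPIH, SF3B3 / COG4, RPL9 / LIAS, OXLD1 / CCDC137 and AIMP2 / PMS2, between 15.2 and 16.2 in replicate 1 and between 21.8 and 30.5 in replicate 2. Of these 15 regions, 8 had a gene from the lists of ribosomal, ribosome assembly, tRNA synthetase, translation, polymerase, chaperone or nucleotide genes, where NME1 is the only one from the nucleotide list. Of all 376 members 82 (21.8%) had such a gene. The lists were joined after values were seen, and the counts were not tested.

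At the low end, the region of TP53BP1, a DNA damage response protein, and MAP1A, a microtubule protein, had 4.28 and 2.99 normalized tags, although its centre lay 1 bp from the nearer start. MAPK15 / FAM83H had 4.28 and 4.19, MRPL10 / LRRC46 had 4.75 and 3.79, TIGD4 / ARFIP1 had 4.28 and 4.79, and UNC79 / BTBD7 had 4.28 and 5.19. The libraries ranked the members alike in part, with a Spearman rho of 0.69 over the 376 regions, against 0.72 over the 1380 regions at a single gene end. This is a description across regions of the same 2 libraries. In 356 members the normalized tag count was higher in replicate 2 and in 20 it was lower. The median ratio of replicate 2 to replicate 1 was 1.56, against 1.49 at single gene ends and 1.39 over all 6313 MYC regions. The widest disagreements in rank were at WDR87 / SIPA1L3 (4.28 and 11.8), WDR4 / NDUFV3 (4.28 and 11.2), TMX2 / MED19 (4.28 and 10.8), CKS1B / SHC1 (4.28 and 10.2) and TXNDC9 / EIF5B (4.28 and 9.98), all at the lowest value of replicate 1 among the members. The peak centres of both libraries were a median of 29 bp apart.

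**Figure D1:**
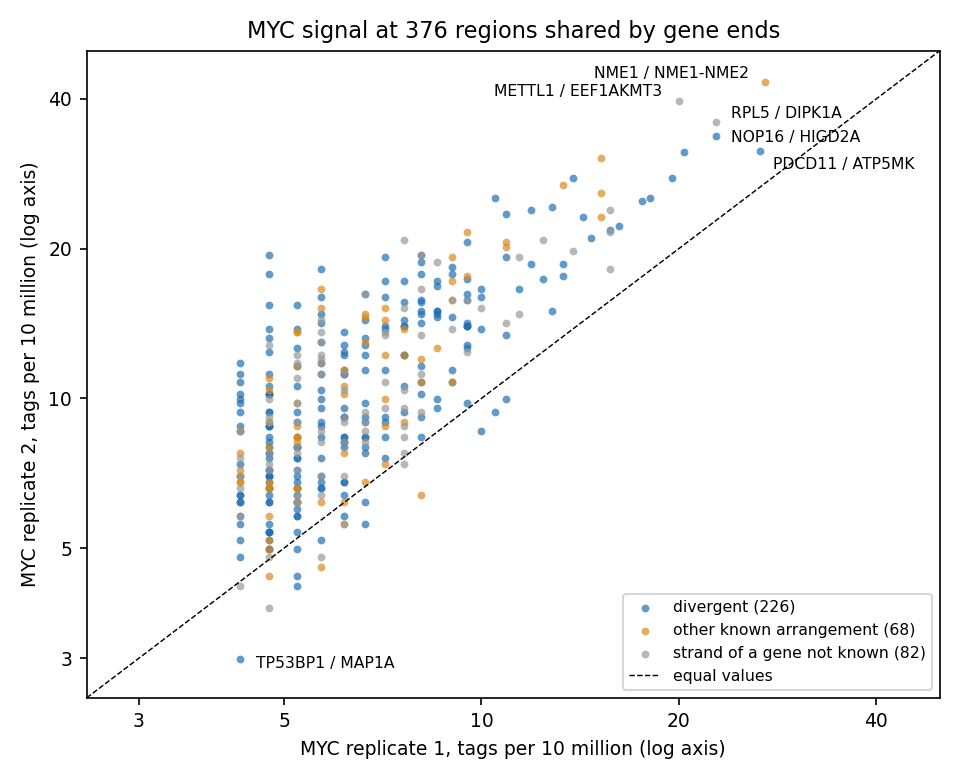
Normalized tag count of each of the 376 regions (points) in MYC replicate 1 (x axis) and replicate 2 (y axis), both on log axes, coloured by the arrangement of the genes; the dashed line marks equal values. Most points (356) lie above the line, and NME1 / NME1-NME2 is highest in both libraries at 27.1 and 43.3.

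The signal at these regions was close to that at MYC regions elsewhere. Median normalized tag counts were 6.18 and 9.98 at the 376 members. They were 6.18 and 9.78 at the 1380 regions near a single gene end, 6.18 and 8.78 at the 2527 regions inside genes, and 6.18 and 8.38 at the 2030 regions between genes. Replicate 1 thus gave the same median in all 4 classes, and replicate 2 gave a higher one at gene ends. The tag count that marks the strongest 10% of all MYC regions was reached by 10.6% of the members in replicate 1 and 12% in replicate 2. At single gene ends the shares were 11.8% and 12.9%, inside genes 11.4% and 9.14%, and between genes 11.1% and 9.06%. Tied values put more than 10% of the regions of each class into the replicate 1 group. Regions of this kind seen in replicate 1 were mostly found again: 86.6% of the 434 regions of this kind in replicate 1 had a peak in replicate 2 (exact 95% binomial interval 83.1 to 89.7%), against 82.4% at single gene ends (80.5 to 84.2%), 72.4% inside genes (70.9 to 73.9%) and 66.8% between genes (65.1 to 68.5%). The interval overlaps that of the single gene ends and lies above the other classes. Seen from the deeper replicate 2, 30.7% of 1225 such regions had a peak in replicate 1 (28.1 to 33.4%), against 27.5% at single gene ends (26.3 to 28.7%), 28.5% inside genes (27.5 to 29.4%) and 27.4% between genes (26.4 to 28.4%), all with intervals that overlap the members'. Intervals here and below cover counting error only.

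Most members were divergent promoters. The strand of every gene could be read at 294 regions, and among the 285 of them with 2 genes, 226 (79.3%) joined 2 starts on opposite strands. Another 38 were tandem, where 1 gene finishes as the next begins, 9 joined starts on the same strand, 7 joined 2 finishes, and 5 joined a start and a finish on opposite strands. The strand of at least 1 gene was not known at 82 regions. Median signal was 6.18 and 10.1 normalized tags at divergent regions and 6.18 and 10.7 at tandem ones. The rarer arrangements spread more widely, with 5.23 and 7.78 for starts on the same strand, 5.7 and 8.58 for facing finishes and 8.08 and 12 for a start and a finish on opposite strands, on 9, 7 and 5 regions.

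The divergent starts lay a median of 144 bp apart (quartiles 29.5 and 258 bp). At 50 of the 226 regions the genes overlapped at their starts, in 132 the gap was 0 to 300 bp, in 41 it was wider than 300 bp and up to 1000 bp, and in 3 it was wider still. The MYC centre lay in the gap itself at a minority of regions. The gap is narrow beside the 1000 bp limit set for the centre, and no share expected from its width was computed. Of 176 regions with a gap of 0 or more, the centre lay between the starts in 31 and inside the span of 1 gene in 145. The nearer start was a median of 126 bp from the centre and the farther one 380 bp. PDCD11 / ATP5MK is an example: the starts are 151 bp apart and the centre lay 83 bp from the start of PDCD11, on the side away from ATP5MK, 234 bp from its start. At APEX1, a DNA repair endonuclease, and OSGEP, which modifies transfer RNA, the starts are 414 bp apart and the centre fell between them, 6 bp from APEX1, with 11.9 and 18.6 normalized tags.

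**Figure D2:**
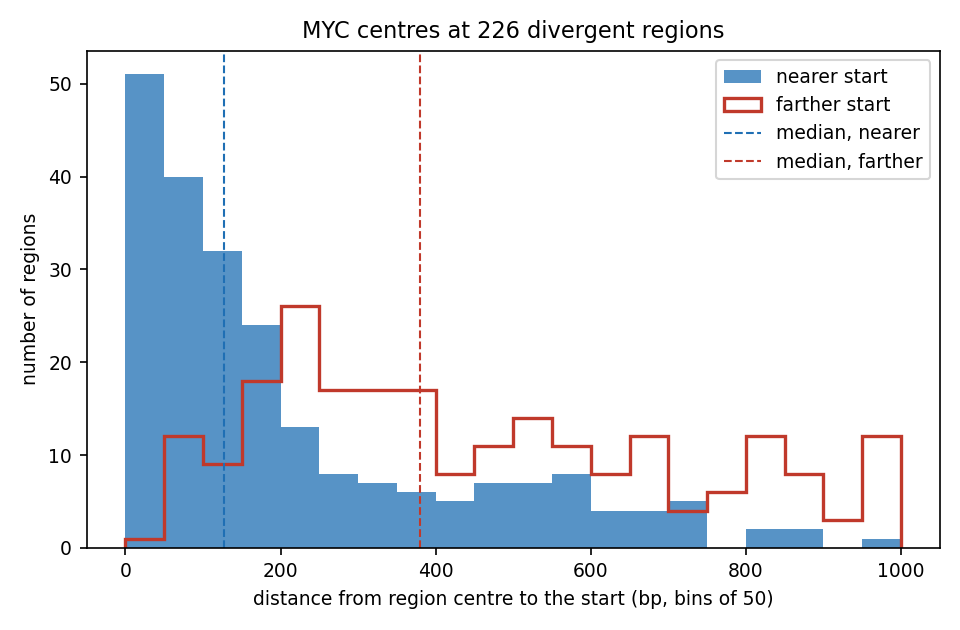
Number of divergent regions (y axis) by distance in bp from the region's centre to the nearer start (filled) and to the farther start (outline), in bins of 50 bp; dashed lines are the medians of 126 and 380 bp. The nearer-start distances crowd below 200 bp, where 147 of 226 lie.

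Which of the 2 genes the peak sat closer to differed between gene lists. These counts were not planned and their grouping was chosen after values were seen, so they carry no test. Of 18 divergent regions with exactly 1 nucleolar ribosome assembly gene, 14 had their centre closer to that gene's start. Mitochondrial ribosomal proteins had 5 of 7, cytosolic ribosomal proteins 7 of 11, splicing genes 5 of 7, mitochondrial import genes 6 of 9, translation factors 6 of 9 and DNA repair genes 7 of 12. RNA polymerase subunits had 3 of 3 and tRNA synthetase genes 2 of 2. The respiratory chain list went the other way, with 3 of 13 closer to the listed gene, and the cell cycle list had 2 of 5. Chaperones and proteasome genes each had 2 of 4, and DNA replication genes 1 of 2. With the ribosome, tRNA synthetase, polymerase, translation, chaperone and nucleotide lists joined, the centre was closer to the listed gene in 38 of 52 regions (73.1%), at a median of 120 bp against 232 bp to the partner. In the remaining lists together it was closer in 24 of 48 (50%). A region whose genes belong to different lists counts under each. PDCD11 / ATP5MK is an example, closer to the ribosome assembly gene and therefore farther from the respiratory chain gene. The shares of the lists, and of the joined and remaining lists, are thus not independent. Some gene pairs hold 2 of these regions, and with 1 region per pair the share was 77.1% of 48.

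Examples show how the partners differ. POLR1A, the largest subunit of RNA polymerase I, and PTCD3, a protein of mitochondrial ribosomes, shared a region with 9.51 and 14.2 normalized tags that lay 84 bp from POLR1A and 433 bp from PTCD3. RPL4, a large-subunit ribosomal protein, and ZWILCH, a kinetochore protein, shared one with 8.56 and 14.6 that lay 157 bp from RPL4 and 628 bp from ZWILCH. At NAA15, an N-terminal acetyltransferase subunit, and NDUFC1, a subunit of respiratory complex I, the genes overlap at their starts and the centre lay 53 bp from NAA15 and 993 bp from NDUFC1, with 8.08 and 15.

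The 376 regions fell on 358 distinct gene pairs or triplets, of which 18 held 2 separate regions, a median of 600 bp apart. In 13 of the 18 the regions had different nearest genes, including 8 of the 10 known divergent pairs. At CDC123 / NUDT5 the region on the side of CDC123 had 20.4 and 31.3 normalized tags and the one nearest to NUDT5, a nucleotide sugar hydrolase, had 6.65 and 9.18. At FAM216A / GPN3 both were of like height, with 9.51 and 16.2 near FAM216A and 8.08 and 19.4 near GPN3, a GTPase of RNA polymerase II assembly. ABCE1, a ribosome recycling factor, and ANAPC10, a subunit of the anaphase-promoting complex, had 8.08 and 15.6 near ABCE1 and 9.51 and 14 near ANAPC10. At YBX1 / PPIH, a tandem pair, the region near YBX1, an RNA-binding protein, had 15.2 and 25.9 and that near PPIH, a splicing-associated isomerase, 8.56 and 12.6.

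Among the regions with 3 genes, ALG3 / EEF1AKMT4 / EEF1AKMT4-ECE2 was highest with 10.9 and 20.6 normalized tags. RPL36A / RPL36A-HNRNPH2 / BTK followed with 9.51 and 17.6, where BTK is a kinase of B cells. POLR1G, a subunit of RNA polymerase I, met PPP1R13L and ERCC1, a DNA repair endonuclease subunit, at a region with 5.7 and 16.6. GMPR2 / NEDD8 / NEDD8-MDP1 had 6.18 and 11.4, and TEX54 / STX5 / WDR74 had 6.18 and 6.19. The first, the second and the fourth of these count a readthrough gene as 1 of the 3, as do 13 members in all, and 9 members owe their second gene to an identical end coordinate.

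MYC regions were more common where gene ends neighbour each other. Of 9060 gene ends with an end of another protein-coding gene within 2000 bp, 9.19% had a MYC region of both libraries within 1000 bp (8.61 to 9.81%). Of 31040 ends without such a neighbour, 3.97% had one (3.76 to 4.2%). The order was the same in replicate 1 alone (10.4 against 4.64%) and in replicate 2 alone (27.7 against 13.3%). An end with a neighbour can be reached by a region that belongs to the neighbour, which an end alone cannot.

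Starts carried MYC far more often than finishes, and divergent starts most often. Among 2290 starts whose nearest neighbour was a divergent start, 21% had a MYC region (19.4 to 22.7%), in replicate 1 23% and in replicate 2 56.3%. Starts next to a tandem gene had one in 8.41% (6.55 to 10.6%), close to the 7.68% of the 11980 starts with no neighbour (7.21 to 8.17%). Finishes without a neighbour had one in 0.671% and finishes that face another finish in 1.13%. Among divergent starts the share was 21.5% with the neighbour up to 250 bp away, 24.1% beyond that up to 500 bp, 19% beyond that up to 1000 bp and 12.2% beyond that up to 2000 bp. The intervals of the first 3 of these overlap.

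CpG content differed with the arrangement, so the shares were also read within groups of like CpG content. Starts were divided into 3 groups of about equal number by the CpG dinucleotides in the 300-base promoter, the low group having up to 15 and the high group over 28. In the low group, 16.8% of starts with a divergent neighbour had a MYC region (12.8 to 21.4%) against 2.95% of starts with no neighbour (2.47 to 3.5%). In the middle group the shares were 26.5% (23.7 to 29.4%) and 13.4% (12.3 to 14.6%), and in the high group 17.5% (15.1 to 20.2%) and 9.71% (8.74 to 10.7%). The divergent starts were higher in each group. A divergent start can, however, also be reached by a region of its neighbour, and such a region counts for both starts. The neighbour's own CpG content was not matched. Whether CpG content or this double reach accounts for the difference was not tested. Tandem starts had 3.4, 13.9 and 9.26%, within the intervals of the starts with no neighbour.

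**Figure D3:**
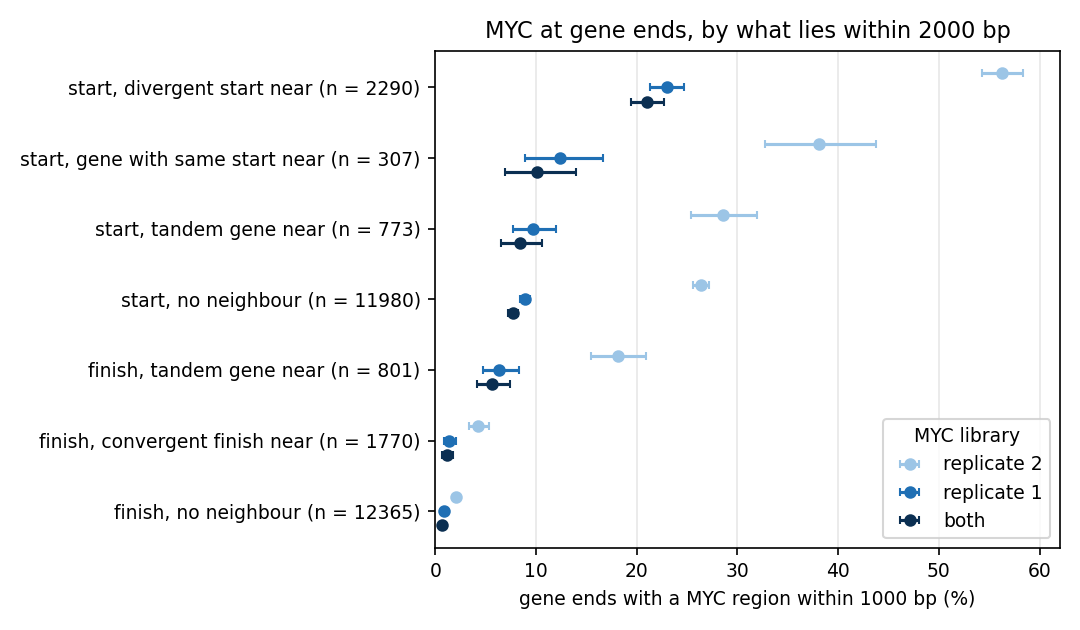
Percentage of gene ends with a MYC region within 1000 bp (x axis) for 7 arrangements (y axis, with the number of ends), in both MYC libraries and in each alone; points are shares and bars exact 95% binomial intervals. Divergent starts are highest in each of the 3 readings, at 21% in both libraries, and finishes without a neighbour lowest, at 0.671%.

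The genes at these regions were read against 21 gene lists. Of all 20050 protein-coding genes 3.59% lay at a member region. Since a gene can do so only if it has a neighbour, a closer background is the 7284 genes with a neighbouring end, of which 9.87% did. These genes were not matched to the lists by arrangement, although 21% of divergent starts and 1.13% of facing finishes had a MYC region. The lists describe the regions and were not tested.

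The ribosome production lists were among those with the highest shares. This was not particular to shared ends. Of all 79 cytosolic ribosomal protein genes 48.1% lay at a single-end MYC region only, and of 104 nucleolar ribosome assembly genes 37.5%, against 6.53% of all protein-coding genes. Of 37 cytosolic ribosomal protein genes with a neighbouring end, 14 (37.8%) lay at a member, among them RPL5, RPS18, RPL9, RPL4 and RPL36A, with medians of 9.04 and 13.8 normalized tags. Nucleolar ribosome assembly had 21 of 56 (37.5%), with PDCD11, NOP16 and GNL3 highest. RNA polymerase subunits had 8 of 22 (36.4%), of which 5 are genes of RNA polymerase I: POLR1A, POLR1B, POLR1C, POLR1G and POLR1H. POLR1B / TTL had 13.3 and 26.9, and POLR1C / YIPF3 had 12.8 and 24.3. Translation factors had 9 of 30 (30%) and chaperones 7 of 24 (29.2%), including CCT3, CCT4, CCT5 and CCT6A of the cytosolic chaperonin. Genes for tRNA synthetases had 3 of 21 (14.3%), which were AIMP2, KARS1 and MARS1.

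Mitochondrial genes were also frequent. Protein import and membrane genes had 10 of 26 (38.5%), such as TOMM70, an import receptor, whose region with LNP1 had 8.56 and 9.58, and LONP1, the matrix protease, whose region with CATSPERD had 8.56 and 17.2. Mitochondrial ribosomal proteins had 14 of 53 (26.4%), with low medians of 5.71 and 8.98. The respiratory chain and ATP synthase had 15 of 62 (24.2%). At single-end regions only, the shares of all genes in these lists were 23.8, 17.9 and 6%, in the same order, against 6.53% of all protein-coding genes.

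DNA repair genes had 17 of 58 (29.3%), while DNA replication genes had 1 of 28 (3.57%), which was POLE3, a small subunit of polymerase epsilon. Splicing genes had 9 of 37 (24.3%), proteasome genes 4 of 23 (17.4%) and cell cycle genes 4 of 25 (16%). Replication-dependent histones come in dense clusters and 76.8% of them have a neighbouring end, yet 1 of 53 (1.89%) lay at a member, H4C16 with 4.28 and 7.18. Nucleotide synthesis had 1 of 16 (6.25%), which was NME1, the strongest member. At single-end regions only, the share of all genes in the list was 23.7% for nucleotide synthesis, 20.6% for splicing and 18.4% for cell cycle. It was 15.2% for proteasome, 14.1% for DNA repair, 9.43% for DNA replication and 4.35% for histones. For the stress response genes described next it was 22.9%, and for all protein-coding genes 6.53%. Of the 8 stress response genes listed as ATF4 targets that have a neighbour, 1 lay at a member (12.5%): PSPH, an enzyme of serine synthesis, shared 9.03 and 15.8 with CCT6A. Marker genes of colon epithelium, blood cells, fibroblasts and vessels, and neurons had none, out of 2, 3, 2 and 5 with a neighbour, numbers too small to compare.

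**Figure D4:**
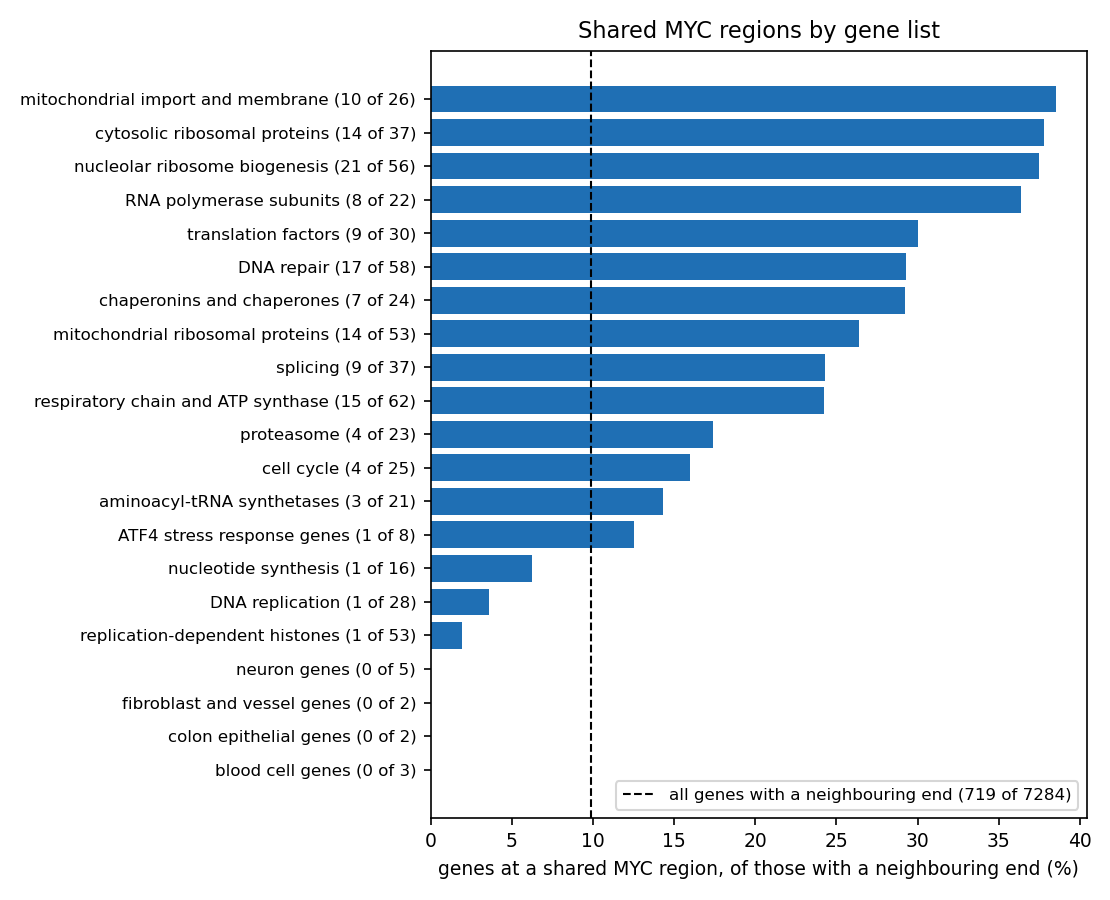
Percentage of the genes with a neighbouring end that lay at a member region (bars, x axis), for 21 gene lists with their counts in brackets; the dashed line is the 9.87% of all 7284 genes with a neighbouring end. Mitochondrial import, cytosolic ribosome, nucleolar and RNA polymerase lists reach 36.4 to 38.5%, and histones reach 1.89%.

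Motifs were counted on both strands of the 300-base promoters of genes that start at these regions. Such a promoter runs from 250 bases before the start to 50 after it and need not include the peak centre. Of the 176 divergent regions with a gap of 0 or more, 145 had their centre inside the span of a gene. The shares therefore describe promoters and not the DNA under the peaks. The canonical E-box CACGTG occurred in 15.7% of 521 promoters, close to the 16.1% of 967 promoters at single-end MYC regions. It occurred in 8.95% of 14568 promoters of all protein-coding genes and in 6.82% of 895 divergent starts with no MYC peak in either library. In the 100 strongest members it was found in 20.4% of promoters and in the 100 weakest in 9.4%. The variant CACGCG occurred in 23.6% of the promoters at members, 22.4% at single-end regions and 15.1% of all. In these promoters CATGTG did not stand out, at 7.87% against 8.37% of all, unlike in the windows at peak centres given below.

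Of the 9 motifs searched, the one whose share differed most in percentage points between members and single-end MYC regions was CCGGAAG, the core bound by ETS factors. It occurred in 32.4% of promoters at members, 24.6% at single-end regions, 21.1% of divergent starts with no MYC peak and 14.7% of all promoters. The NOP16 / HIGD2A sequence above holds this core near its right end. Unlike the E-box, it was as frequent at the weakest 100 members (33.6%) as at the strongest 100 (37.4%) to within a few percentage points. The ATF4 composite element, searched as TGATGNAAN, occurred in 0.96% of promoters at members (5 promoters) and in 2.41% of all. It was also below the share of all at single-end regions (1.45%) and at divergent starts with no MYC peak (1.34%). The CCAAT box (CCAAT) occurred in 41.7% against 36.8% of all, CAGCTG in 15% against 17.6%, the cAMP response element TGACGTCA in 2.69% against 2.67%, and the palindromic NRF1 site in 3.07% against 1.8%. A match is a description of the letters, not of a factor on the site.

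**Figure D5:**
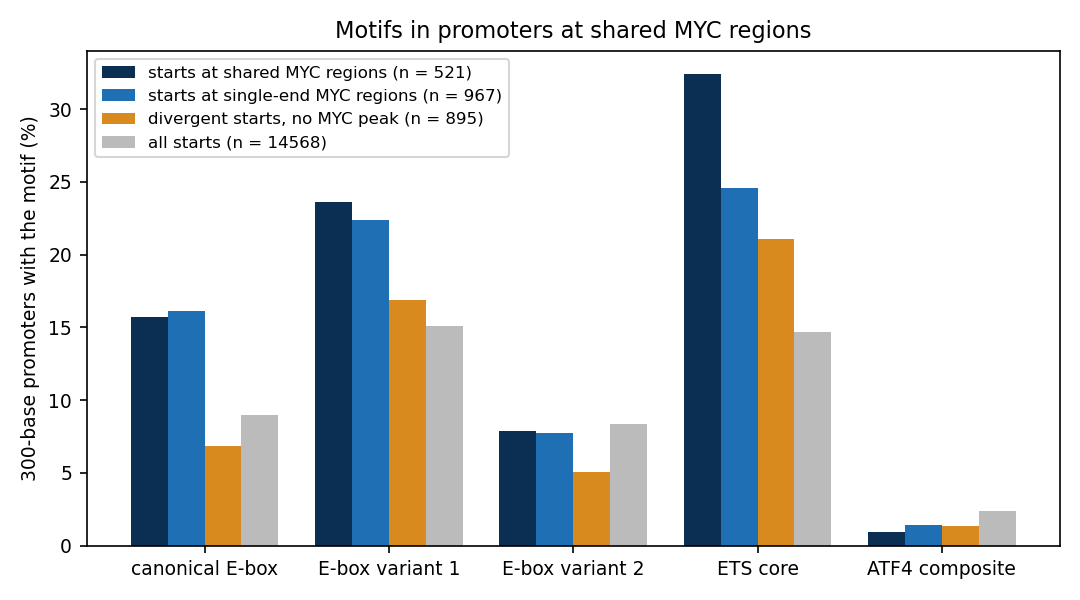
Percentage of 300-base promoters with each motif (bars, y axis) at member regions, at single-end MYC regions, at divergent starts with no MYC peak, and over all protein-coding starts; E-box variant 1 is CACGCG and variant 2 is CATGTG. The canonical E-box is at 15.7% and the ETS core at 32.4% at members, against 8.95% and 14.7% over all starts.

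The sequence from 50 bases before to 50 bases after the peak centre could be read for 96 of the 376 members. The canonical E-box lay in 17 of them (17.7%), against 21.5% of 177 single-end regions. It lay in 3.32% of windows of this length at bases 100 to 200 of all promoters, which are placed by the start and not by a peak. The variant CATGTG lay in 10.4% of the members' windows, 11.9% of the single-end ones and 2.88% of those promoter windows. For CACGCG the shares were 8.33, 13.6 and 6.05%, in the same order. The 17 members with the canonical E-box had medians of 6.18 and 12.2 normalized tags and the other 79 had 5.7 and 9.38. The quartiles overlap, being 5.23 to 8.56 and 4.75 to 8.79 in replicate 1, and 9.78 to 17.2 and 7.48 to 13.7 in replicate 2. Of the 96, 63 had neither the canonical E-box nor either variant in this window, as at NOP16 / HIGD2A.

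ATF4 was rarely found at these regions. No member overlapped an ATF4 region of both control libraries, where a count of 0 in 376 allows a share of up to 0.798% if taken as 3 counts, or 0.976% by the exact interval, and 0.428% of all 6313 MYC regions did. In activated cells 2 members did (0.532%, 0.0645 to 1.91%), against 1.03% of all MYC regions, 0.507% at single gene ends and 1.35% inside genes. With this few regions the members' share is not separable from that of any of these classes. ATF4 had 352 regions of both libraries in activated cells and 151 in control, and any effect of this on the shares was not tested. Counting ATF4 peaks centred within 1000 bp of the member's centre gave 8 members. These were the same 2, and others with a peak in 1 control library alone. By overlap, the 2 regions were found in both activated libraries and in neither control library. The mean difference of 0.532 percentage points gave p = 0.333 in a two-sided exact permutation test over the 4 ATF4 libraries, which is the smallest p that 2 against 2 libraries allow.

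Both regions belong to activated cells only, as far as called peaks show. MARS1, the methionyl-tRNA synthetase, and ARHGAP9 shared a MYC region with 4.28 and 6.99 normalized tags, and ATF4 had 7.22 and 8.04 there in activated cells, its centre 54 bp from that of MYC. TXNDC12, a thioredoxin-like protein of the endoplasmic reticulum, and BTF3L4 shared a MYC region with 6.18 and 8.38, and ATF4 had 6.41 and 8.04, its centre 129 bp away. The MARS1 sequence is shown because it holds the ATF4 element: read on the plus strand (chr12:57488008-57488117), the capitals are TTGCATCA, the reverse complement of a match to TGATGNAA. It lies 3 bp from the centre of the ATF4 region and 57 bp from that of the MYC region.
MARS1 / ARHGAP9: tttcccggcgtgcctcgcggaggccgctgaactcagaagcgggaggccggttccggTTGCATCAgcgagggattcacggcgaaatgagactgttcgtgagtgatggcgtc

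ATF4 regions of both activated libraries fell at shared gene ends in 5 of 352 cases (1.42%), against 5.96% for MYC. Beside the 2 above these were S100PBP / YARS1, CLDN7 / ELP5 and FUT1 / FGF21. FGF21, a stress-induced hormone, and FUT1 had the highest ATF4 signal of the 5, with 22.3 and 14.5 in control and 42.5 and 33.6 in activated cells, so the conditions did not overlap. MYC had 4.59 there in replicate 2 and no peak in replicate 1. At YARS1, the tyrosyl-tRNA synthetase, and S100PBP, ATF4 had 4.91 and no peak in control and 6.81 and 9.44 in activated cells, with MYC at 10.2 in replicate 2 alone. At CLDN7, a tight junction protein, and ELP5, ATF4 had no peak and 5.17 in control and 8.02 and 10.4 in activated cells, with no MYC peak. These 3 are outside the rule for named regions and were picked as the rest of a small count.

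A test of ATF4 signal between conditions could be made only at the 105 ATF4 regions with a peak in all 4 libraries, and none of them lies on a member. Over these 105 regions limma called 37.1% higher in activated cells and 0% lower at a Benjamini-Hochberg adjusted p of 0.05 (57 higher and 0 lower at an unadjusted p of 0.05), and this says nothing of the members. With each library centred on its median, 0 were called higher and 9 lower. With the replicate number as a block, or without any 1 of the 4 ATF4 libraries, 0 were called higher.

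The members just inside and just outside the distance limit were alike. In 28 members the second gene end lay 900 to 1000 bp from the centre, with medians of 6.18 and 8.58 normalized tags, and in 25 regions it lay 1000 to 1100 bp away, with 6.18 and 7.58.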

How the data were processed

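MYC and ATF4 ChIP-seq peak lists of 6 libraries were used. Groups and replicate numbers came from the sample labels. Bowtie 0.12.9, HOMER and hg38 are named in the submitters' processing notes, and settings are not given in the sources used here. Peaks were called by the authors in each library, with a fixed width per list of 148 to 212 bp. Per the file headers, the deposited normalized tag count is a signal scaled to 10 M tags. The focus ratio is, per the file headers, a fraction. The deposited fold change over the control and over the surroundings is a ratio, and was used here only in an alternative. Total tags are whole-number counts in the replicate 1 lists the authors deposited, and with the normalized values gave the depth, which for replicate 2 was read from the steps between low values. No count test was run, since the replicate 2 lists hold no whole counts.

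Peaks overlapping by 1 bp were merged, and where a library had several peaks in a region the one with most tags was taken. Gene spans, symbols, promoters and strands came from RefSeq tables (GRCh38.p14), and strand, read from promoter sequences, was available for 79% of 20050 protein-coding genes. Shares have exact Clopper-Pearson 95% intervals. ATF4 signal was tested with limma 3.58.1 (R 4.3.3, trend, log2 of value plus 1), tested on simulated data first. Other steps used Python 3.11.15, pandas 2.3.3 and scipy 1.17.1. Named regions were the 15 highest and 5 lowest by mean rank within each list, up to 4 per gene list, the 5 with most genes, the 5 with the largest rank difference, and those with ATF4. Further genes are examples picked with their values in view. The members and gene lists were chosen with earlier results of these data known. Alternatives covered the window, the fold minimum, the merging rule, readthrough genes, the pseudocount, centring and leaving out each library.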

Additional observations from a re-analysis of the deposited data

How the results depend on the processing

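The number of members and the shares rest on the window, the fold minimum and the MYC libraries. With a window of 500 bp there were 205 members, 7.74% of neighbouring and 2.71% of other gene ends had a MYC region, 85.7% of the pairs of known strand were divergent, the ratio of shared-end to single-end median signal was 1.05 (1.01 as reported), and 0 members overlapped ATF4 in activated cells, so that the difference from control was 0. With 2000 bp the share of other ends was 4.84% and the divergent share 72.4%. With a minimum of 8-fold above background for each peak there were 201 members, 5.1% and 2.14% of ends, a signal ratio of 0.984, and 0 members with ATF4 and a difference of 0. Merging at 0.5 of the shorter peak gave 8.19% and 3.55%. Without readthrough genes and identical ends the signal ratio was 1.03. Leaving out a MYC library gave 430 to 1222 members, 10.4 to 27.7% of neighbouring and 4.64 to 13.3% of other ends, and a signal ratio of 1 to 1.08, the higher values without replicate 1, where the deeper list stands alone. Neighbouring ends were above other ends under each of these settings. The share of divergent regions closer to the listed growth gene, 73.1%, was 69.6 to 82.1% under the settings above, 78.8% by distance to the nearest listed transcription start and 77.1% with 1 region per pair, all chosen after seeing the data.

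For ATF4, the paired difference within each replicate number (the replicate block) was 0.532 percentage points, as without pairing. Same-numbered ATF4 libraries deviated together only weakly (r = 0.0976 over 105 regions), so the number is not taken to pair them. The 39 regions called higher by limma became 0 with the replicate block and 0 without any 1 of the 4 ATF4 libraries (0 to 0), where a condition is left with 1 library assumed to vary like the others. With libraries centred on their median 0 were higher and 9 lower. The cause was not tested. A count model was not run, since whole counts were not available for every list. The effect of depth was not tested: peaks of replicate 2 are listed down to 2.39 normalized tags and those of replicate 1 down to 3.8.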
